A study of Homo sapiens with 12 samples.

Results

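The genes described here are 43 components of autophagy and the lysosome, out of 19775 genes named on the array. They were taken by symbol. Where a symbol had several probe sets, the brightest by its 12-array mean was used. The members fall into 8 classes, namely 2 cargo receptors, 4 members of the ATG8 family, 6 conjugation enzymes, 7 genes of initiation and membrane supply, 3 MiT/TFE transcription factors, 8 lysosomal hydrolases, 6 genes of the lysosomal membrane and lipid export, and 7 proton pump subunits. The first 4 classes, 19 genes in all, are called the autophagy machinery below.

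RNA was profiled on Affymetrix arrays in HK-2, a human cell line immortalized from the renal proximal tubule, as part of a search for expression signatures of kidney toxicity. The groups were cells given a low dose of Kbr for 24 h, vehicle controls of 24 h, cells given a low dose of Kbr for 48 h, and vehicle controls of 48 h, with 3 biological replicates each. The sources used here give neither the full name nor the concentration of the compound. All groups shared a medium with growth factor, insulin, transferrin and hydrocortisone, and all cells came from a single line, so the replicates are separate samples of that line.

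In macroautophagy, cytoplasmic material is enclosed in a double membrane that fuses with the lysosome. Cargo receptors tie the material to ATG8 proteins, small ubiquitin-like proteins that conjugation enzymes attach to the growing membrane. In the lysosome, a proton pump acidifies the lumen and hydrolases digest the content, and MiT/TFE factors are known to activate many of these genes. Proximal tubule cells use the lysosome heavily, since they take up and degrade filtered protein.

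The median log2 value per array was 2.91 to 2.99, and arrays of the same group correlated at 0.982 to 0.993 across the tested genes. Of 15 markers of proximal tubule and epithelium measured, 7 passed the filter on low values (a log2 value above 4 on at least 3 of the 12 arrays), namely PAX8, KRT8, KRT18, EPCAM, CDH1, CDH2 and CDH6. The defining brush border and uptake genes LRP2, CUBN, SLC34A1, SLC5A2, AQP1, ANPEP and GGT1 did not pass, and neither did PAX2, so the label rests on the epithelial markers. Markers of leukocytes (0 of 7) and endothelium (0 of 5) did not pass the filter. Of 7 fibroblast markers, COL1A1, DCN and LUM passed, and COL1A2, COL3A1, PDGFRA and PDGFRB did not. The list's summed level on the log2 scale was 11.83 to 12.31 with Kbr and 12.47 to 12.99 in controls at 24 h, and 10.56 to 11.08 with Kbr and 12.39 to 12.46 in controls at 48 h. That sum therefore moved with every treatment comparison below, and its part in the results was not tested. The epithelial list was apart too, with summed levels of 14.67 to 14.91 with Kbr and 14.92 to 15.15 in controls at 24 h, and of 14.42 to 14.71 with Kbr and 14.87 to 14.90 in controls at 48 h. The part of this list was not tested either. By group means KRT8, EPCAM, CDH1, CDH2 and CDH6 were lower with Kbr at both times. PAX8 was higher with Kbr, at 11.32 against 10.80 at 24 h and 11.28 against 10.88 at 48 h. KRT18 was lower at 24 h (13.02 against 13.18) and higher at 48 h (13.02 against 12.66). The arrays measured RNA of whole cultures, in which fewer cells of a kind and less RNA per cell cannot be told apart.

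The arrays were compared with limma over all 10665 genes past the filter, and p-values were adjusted over all of them by Benjamini-Hochberg, with a threshold of 0.05. Of the 43 members, 42 were tested. ULK2, a kinase that starts autophagy, stayed below the filter, at log2 values of 2.51 to 3.98 over the 12 arrays. An exact permutation test of 3 against 3 arrays could not go below a p of 0.1, so calls rest on the fit across all genes.

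After 24 h with Kbr, 4 of the 42 members tested were higher than in controls and 0 were lower. These were the cargo receptor SQSTM1, the conjugation enzyme ATG16L1, the ATG8 protein GABARAPL1 and the hydrolase GLA. Their share of 9.52% stood beside 5.74% of all genes tested, of which 2.48% were higher and 3.25% lower. In 13 members the 3 Kbr arrays lay on one side of all 3 controls (10 higher and 3 lower), against 31.8% of all genes. With the replicate number as a block, 8 members were higher and 3 lower, beside 24.4% of all genes. The members added were ATG5, ATG12, TFE3 and ATP6V1C1, which were higher, and GABARAP, GAA and ATP6V1A, which were lower.

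After 48 h, 10 members were higher with Kbr and 6 lower. The 16 calls made 38.1% of the members tested, beside 42.8% of all genes (22.0% higher and 20.8% lower), so members were not called more often than genes at large. The members' median log2 change was 0.08, beside -0.0038 over all genes tested, and their median size of change was 0.39, beside 0.35. The arrays did not overlap in 19 members (10 higher and 9 lower), against 50.9% of all genes. Without replicate 1 of the 48 h controls the count of calls fell to 10, with 5 in each direction.

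**Figure D1:**
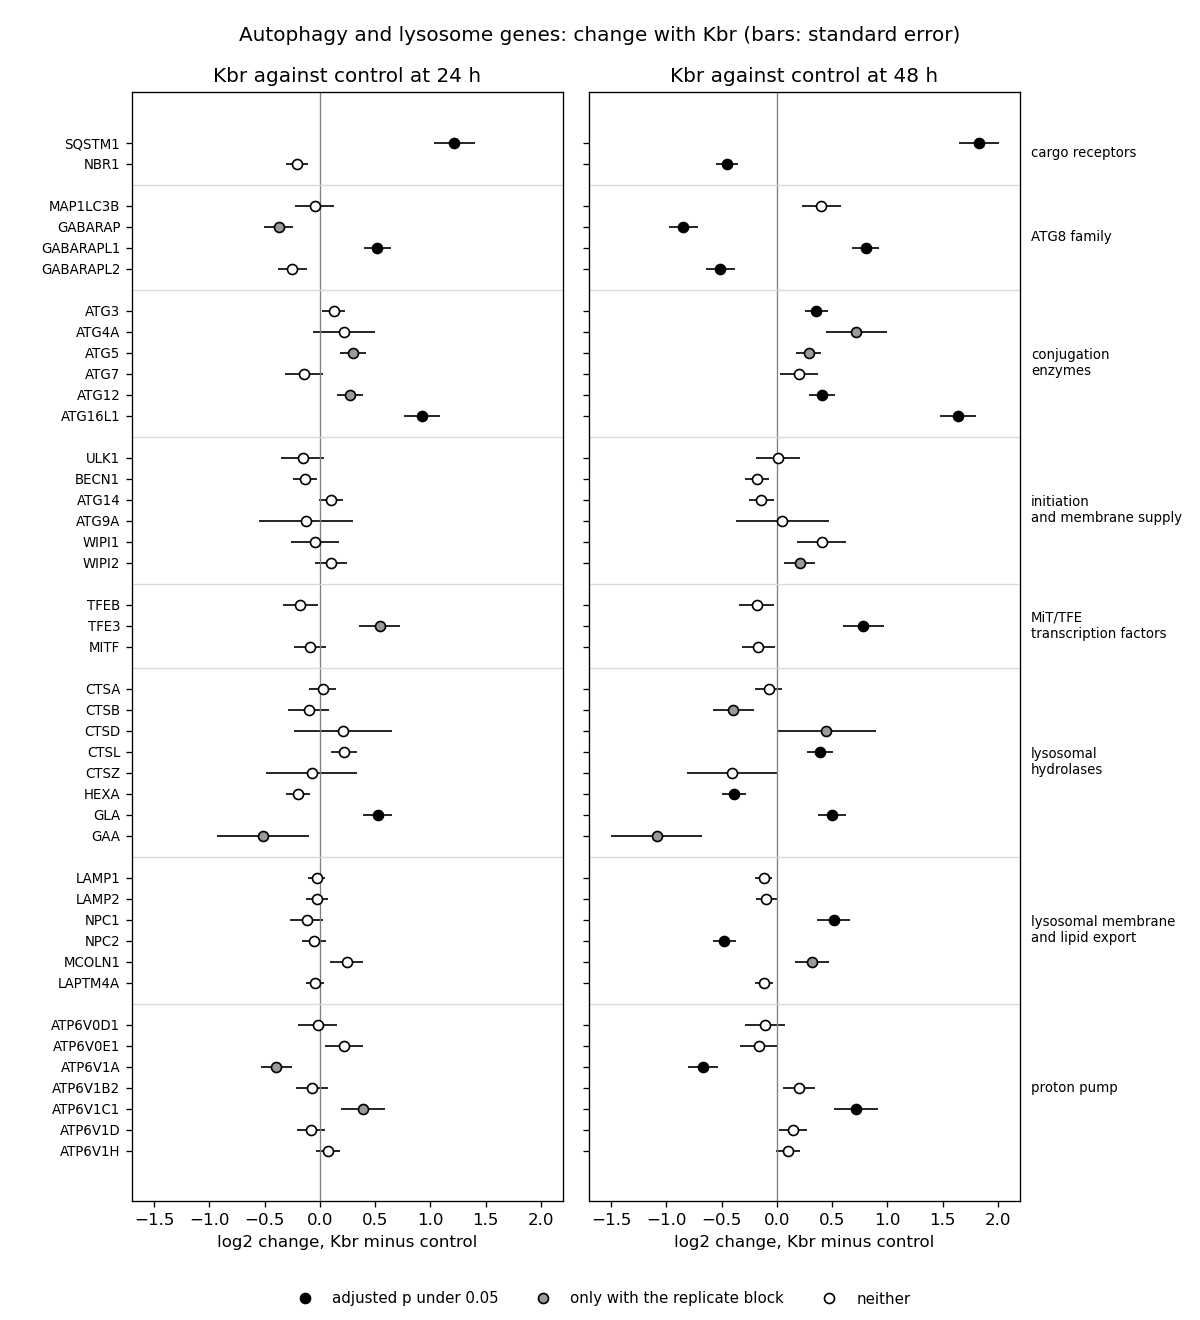
Log2 change with Kbr (horizontal axis, Kbr minus control, with the standard error) of the 42 tested members at 24 h (left) and 48 h (right), by class. Black points passed the test, grey points passed it only with the replicate block, and white points passed in neither fit. SQSTM1 and ATG16L1 lie farthest to the right at both times, and the ATG8 family, hydrolases, lipid exporters and proton pump each hold points on both sides at 48 h.

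The 2 cargo receptors moved apart. SQSTM1, also called p62, binds ubiquitin on cargo and ATG8 proteins on the membrane. Its log2 values at 24 h were 13.09, 12.82 and 12.76 with Kbr, against 11.77, 11.47 and 11.78 in controls. At 48 h they were 14.03, 13.48 and 13.49 with Kbr, against 12.03, 11.53 and 11.97 in controls. Every Kbr array lay above every control array at either time. The log2 change was 1.22 (SE 0.18, 2.32-fold, adjusted p = 0.00775) at 24 h and 1.83 (3.55-fold, adjusted p = 8.3e-05) at 48 h, and both calls held without any single array. In Kbr cells alone, SQSTM1 was also higher at 48 h than at 24 h, by 0.78 (adjusted p = 0.0254), and 10.6% of all genes were called in that comparison. This call between times was lost without replicate 2 or 3 of Kbr at 24 h or replicate 1 or 2 of Kbr at 48 h (adjusted p up to 0.0936). A further pair of SQSTM1 probe sets passed the filter. Their changes were 0.97 and 1.56 at 24 h and 1.38 and 2.25 at 48 h, all past the test in a fit over probe sets.

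NBR1, a receptor of similar build, had log2 values at 48 h of 9.70, 9.78 and 9.62 with Kbr, against 10.08, 10.19 and 10.19 in controls. The groups did not overlap, and NBR1 was lower by a log2 change of -0.45 (SE 0.10, adjusted p = 0.00434). At 24 h its arrays did not overlap either, at 9.79, 9.78 and 9.5 with Kbr against 9.97, 9.89 and 9.83 in controls, and the change of -0.21 did not pass (adjusted p = 0.233). A second NBR1 probe set changed by -0.32 at 48 h without passing (adjusted p = 0.066).

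Within the ATG8 family, 1 of 4 members rose and 2 fell at 48 h. GABARAPL1 had log2 values of 9.19, 8.92 and 9.16 with Kbr at 48 h, against 8.09, 8.25 and 8.51 in controls, a log2 change of 0.80 (1.74-fold, SE 0.12, adjusted p = 0.000659). At 24 h the values were 8.57, 8.45 and 8.56 with Kbr against 8.14, 8.0 and 7.88 in controls, and the change of 0.52 passed (adjusted p = 0.0384). The groups were apart at both times, though the 24 h call was lost without any of the 6 arrays of that time or replicate 2 of the 48 h controls (adjusted p up to 0.114), and without the filter (adjusted p = 0.0589). It was also lost in the fit over probe sets (adjusted p = 0.050005). A second GABARAPL1 probe set changed by 0.78 at 24 h (adjusted p = 0.0178) and 0.89 at 48 h (adjusted p = 0.000813) in that fit. GABARAPL1 also rose in Kbr cells between the times, by 0.56 (adjusted p = 0.0201), a call lost without any Kbr array of 24 h or Kbr replicate 1 of 48 h (adjusted p up to 0.0730).

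GABARAP, whose protein is closely related, went the other way. At 48 h it had log2 values of 11.73, 11.49 and 11.65 with Kbr, against 12.70, 12.31 and 12.39 in controls, a change of -0.84 (1.80-fold lower, SE 0.13, adjusted p = 0.000647). At 24 h its values of 11.97, 11.77 and 11.78 with Kbr also lay below the 12.41, 12.14 and 12.09 of controls. That change of -0.37 passed only with the replicate block (adjusted p = 0.114, and 0.00802 with the block). GABARAPL2 at 48 h had 11.02, 11.26 and 11.33 with Kbr, against 11.68, 11.79 and 11.68 in controls. It fell by 0.51 (SE 0.13, adjusted p = 0.00862), with no overlap.

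MAP1LC3B, the gene of the autophagosome marker LC3B, did not pass. Its 48 h values were 11.68, 11.32 and 10.89 with Kbr, against 10.86, 10.79 and 11.03 in controls. Replicates 1 and 2 with Kbr were the highest of the 6 arrays, while replicate 3 lay among the controls, and the change of 0.40 had an SE of 0.18 (adjusted p = 0.0898). A second MAP1LC3B probe set gave the same change of 0.40 and passed in the fit over probe sets (adjusted p = 0.043). At 24 h the change was -0.05.

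Of the 6 conjugation enzymes, 3 rose at 48 h, 0 fell, and all 6 had a positive change. ATG16L1, which places the ATG5 and ATG12 conjugate on the membrane, led them. At 24 h it had log2 values of 7.65, 7.62 and 7.43 with Kbr, against 6.65, 6.55 and 6.75 in controls. At 48 h it had 8.39, 8.08 and 7.65 with Kbr, against 6.33, 6.31 and 6.56 in controls. All Kbr arrays lay above all controls at both times. The change was 0.92 (SE 0.16, 1.90-fold, adjusted p = 0.0135) at 24 h and 1.64 (3.12-fold, adjusted p = 7.6e-05) at 48 h. The 24 h call was lost without Kbr replicate 2 or control replicate 1 or 2, with an adjusted p up to 0.0628, and with the mean of probe sets (adjusted p = 0.0624). A second ATG16L1 probe set changed by 0.71 at 24 h (adjusted p = 0.337) and by 1.19 at 48 h (adjusted p = 0.035).

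ATG12, a ubiquitin-like protein joined to ATG5, had 9.94, 10.12 and 9.99 with Kbr at 48 h, against 9.40, 9.75 and 9.67 in controls, a rise of 0.41 (SE 0.12, adjusted p = 0.0173). ATG3, which transfers ATG8 proteins to lipid, had 12.59, 12.37 and 12.22 with Kbr, against 11.99, 12.13 and 11.99 in controls, a rise of 0.36 (SE 0.11, adjusted p = 0.0186). Neither overlapped, but each call depended on single arrays. That of ATG12 was lost without Kbr replicate 2 or control replicate 1 (adjusted p up to 0.0667). That of ATG3 was lost without Kbr replicate 1 or control replicate 1 or 3 (up to 0.0657), and with only the 48 h groups fitted (adjusted p = 0.0707). The 2 other ATG12 probe sets past the filter differed in size at 48 h. In the fit over probe sets they changed by 0.71 (adjusted p = 0.0105) and 0.05 (adjusted p = 0.783). ATG4A, which trims ATG8 proteins, and ATG5 passed at 48 h only with the block, at changes of 0.72 (adjusted p = 0.0576, and 0.0392 with the block) and 0.29 (0.0611, and 0.00493 with the block). The probe sets of ATG5 disagreed, since another one fell by 0.77 (adjusted p = 0.00236). ATG7, the activating enzyme of both conjugation systems, changed by 0.20 (adjusted p = 0.365).

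No gene of initiation and membrane supply passed in 6 tested, at either time. Changes at 48 h ran from -0.18 for BECN1, a subunit of the lipid kinase complex that starts the membrane, to 0.40 for WIPI1, which reads its lipid product. WIPI1 ranged from 8.58 to 9.54 with Kbr and from 8.35 to 8.99 in controls. ULK1, the starting kinase, stayed near the filter, between 3.97 and 4.87 over all 12 arrays. With the block WIPI2 passed narrowly at 48 h, by a change of 0.21 (adjusted p = 0.262, and 0.04996 with the block).

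**Figure D2:**
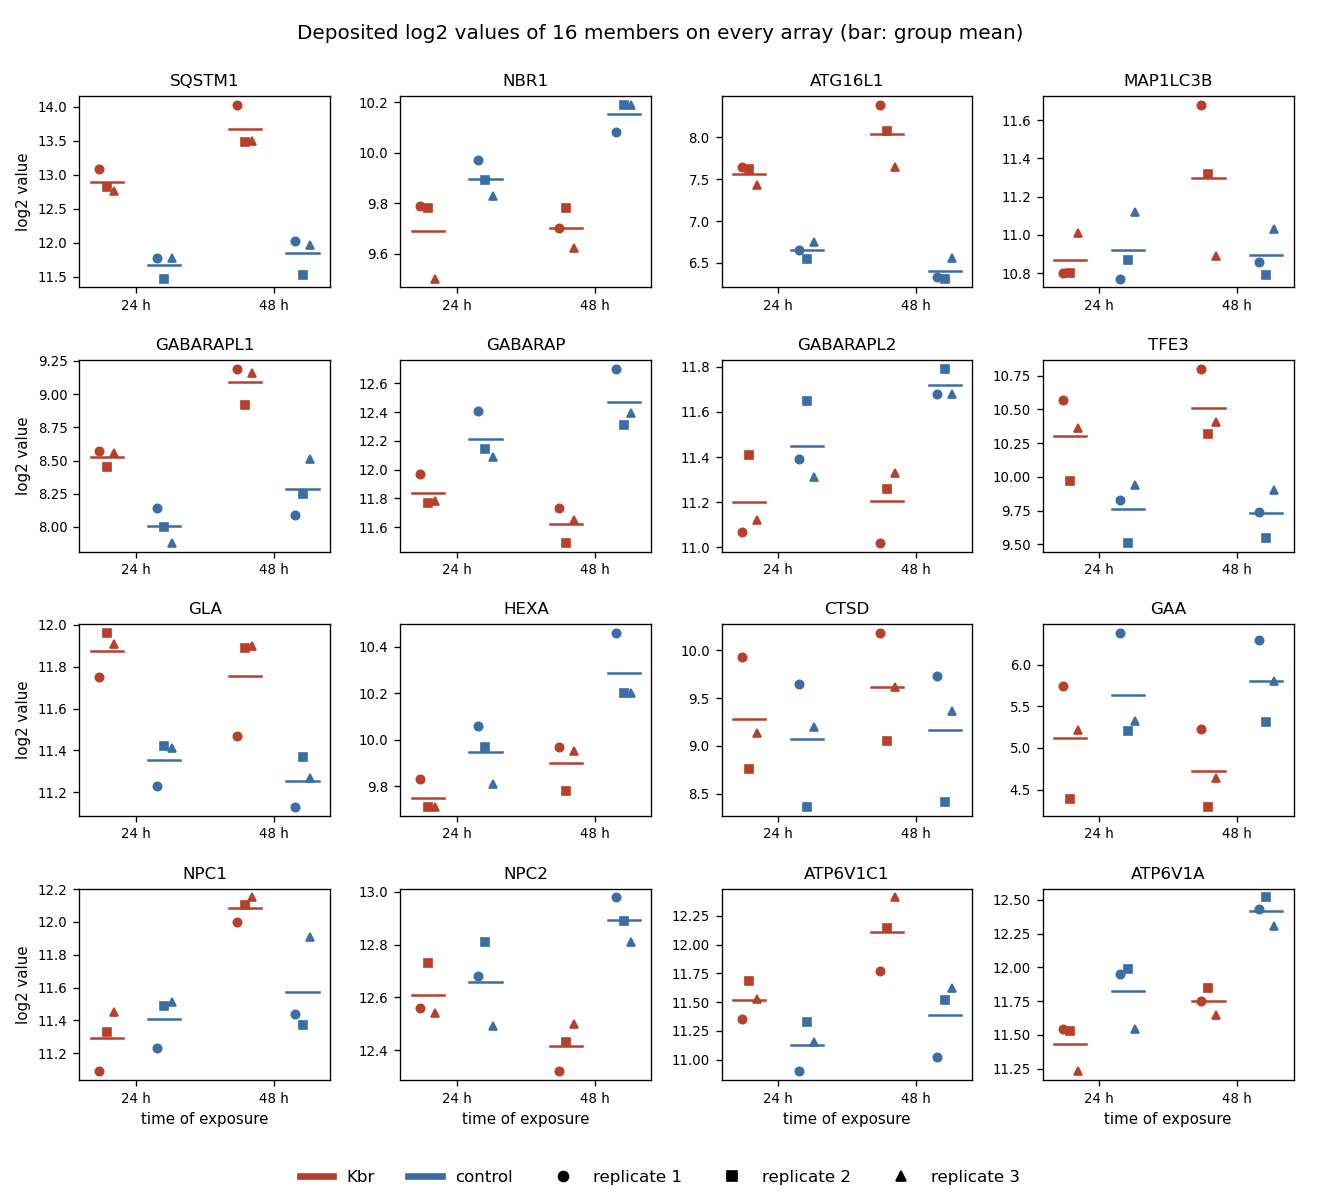
Deposited log2 values (vertical axis, scaled per gene) of 16 members on all 12 arrays by time of exposure, with Kbr arrays in red left of controls in blue at each time. Symbols mark the replicate and bars the group means. SQSTM1, ATG16L1 and GABARAPL1 lie above their controls on all Kbr arrays, GABARAP and ATP6V1A below, while CTSD and GAA keep the same order of replicates in all 4 groups.

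Of the 3 MiT/TFE transcription factors, TFE3 rose at 48 h. It had log2 values of 10.80, 10.32 and 10.41 with Kbr, against 9.74, 9.55 and 9.90 in controls, a change of 0.78 (1.72-fold, SE 0.18, adjusted p = 0.00624) that held without any single array. Its 2 other probe sets past the filter rose too, by 0.96 and 1.32. At 24 h the arrays of TFE3 were also apart, at 10.57, 9.97 and 10.36 with Kbr against 9.83, 9.51 and 9.94 in controls. That change of 0.54 passed only with the block (adjusted p = 0.105, and 0.00991 with the block). TFEB lay low, between 4.37 and 5.24 on all arrays, and changed by -0.18 at 48 h (adjusted p = 0.375). MITF changed by -0.17 (adjusted p = 0.391).

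The DNA element these factors bind, known as CLEAR, has the core TCACGTGA, which was searched on both strands in the 250 bases before each annotated start of a gene. Of the 43 members, 35 matched the RefSeq promoter table (GRCh38.p14), and a gene was counted if any of its starts held the letters. The core was found in 5 of these 35 members (14.3%), against 2.28% of 8852 tested genes and 1.04% of 27305 genes in the table. Members were chosen as autophagy and lysosome genes, many of which these factors are known to activate. The larger share among them is therefore not read as a result. The 5 are shown because they are the members with the core. Each stretch is the 90 bases before the start, 5′ to 3′ on the gene's strand, with the core in capitals.
CTSA, chr20:45891245-45891334, plus strand: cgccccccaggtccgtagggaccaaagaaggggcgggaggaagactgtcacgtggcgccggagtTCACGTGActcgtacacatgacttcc
GAA, chr17:80101491-80101580, plus strand: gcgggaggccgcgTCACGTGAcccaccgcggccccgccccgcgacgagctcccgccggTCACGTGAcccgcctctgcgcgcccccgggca
LAMP1, chr13:113297149-113297238, plus strand: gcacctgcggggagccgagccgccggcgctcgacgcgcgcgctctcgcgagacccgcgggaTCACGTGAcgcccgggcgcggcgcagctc
MCOLN1, chr19:7522534-7522623, plus strand: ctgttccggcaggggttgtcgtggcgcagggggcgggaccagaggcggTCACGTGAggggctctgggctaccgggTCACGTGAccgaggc
ATP6V0D1, chr16:67481158-67481247, minus strand: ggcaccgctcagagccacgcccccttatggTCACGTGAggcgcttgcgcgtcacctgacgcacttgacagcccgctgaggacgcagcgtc

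None of these 5 passed at 48 h, and the core was in 0 of the 9 risers and 0 of the 4 fallers that have an entry. Their changes at 48 h were -0.07 for CTSA, -1.09 for GAA, -0.12 for LAMP1, 0.32 for MCOLN1 and -0.11 for ATP6V0D1. With the block MCOLN1, a calcium channel of the lysosome, passed upward (adjusted p = 0.0158) and GAA downward (0.000176). The shorter E-box CACGTG, which lies within the core, was in 8 members, against 11.8% of tested genes. ATG3 was the riser with one. The letters TGACNNNGC, the core of the antioxidant response element, were in 9 of the 35 members (25.7%), against 1432 of 8852 tested genes. Among the called members these were CTSL, which rose, and NPC2, which fell. The letters TGATGNAA, the core of the C/EBP-ATF response element, were in 0, against 2.18% of tested genes. The stretches of the 2 risers with a match are shown with it in capitals, an E-box in ATG3 and TGACNNNGC on the opposite strand in CTSL.
ATG3, chr3:112561963-112562052, minus strand: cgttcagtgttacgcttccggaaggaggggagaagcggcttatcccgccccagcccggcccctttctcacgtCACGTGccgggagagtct
CTSL, chr9:87726029-87726118, plus strand: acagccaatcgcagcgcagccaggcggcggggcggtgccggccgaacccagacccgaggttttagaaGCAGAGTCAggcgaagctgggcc

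Of the 8 lysosomal hydrolases, 2 rose and 1 fell at 48 h. GLA, the galactosidase deficient in Fabry disease, was the sole member outside the autophagy machinery that passed at both times. Its log2 values at 24 h were 11.75, 11.96 and 11.91 with Kbr, against 11.23, 11.42 and 11.41 in controls. At 48 h they were 11.47, 11.89 and 11.90 with Kbr, against 11.13, 11.37 and 11.27 in controls. The groups were apart at both times, with nearly equal changes of 0.52 (adjusted p = 0.0419) and 0.50 (adjusted p = 0.0102, SE 0.13 each). The 24 h call held in 3 of 12 fits with an array left out (adjusted p up to 0.159 in the others). The 3 were those without Kbr replicate 1 or 3 or control replicate 1 of 48 h, and the 48 h call held in all 12. Without the filter the adjusted p at 24 h was 0.0661.

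CTSL, a cysteine protease, had 9.64, 9.64 and 9.95 with Kbr at 48 h, against 9.27, 9.22 and 9.56 in controls. It rose by 0.39 (SE 0.12, adjusted p = 0.0216), and the call was lost without Kbr replicate 3 or control replicate 1 or 2, with an adjusted p up to 0.0774, and with only the 48 h groups fitted (adjusted p = 0.0817). HEXA, a subunit of the hexosaminidase deficient in Tay-Sachs disease, had 9.97, 9.78 and 9.95 with Kbr, against 10.46, 10.20 and 10.20 in controls. It fell by 0.39 (SE 0.11, adjusted p = 0.0139), and the call was lost without Kbr replicate 2 or control replicate 1 (adjusted p up to 0.0565). With the mean of its probe sets HEXA changed by -0.07 (adjusted p = 0.345). That mean takes in 3 other probe sets that did not pass the filter, at mean log2 values of 3.28, 2.72 and 2.15. In both genes the groups did not overlap.

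The replicate number carried most of the spread in several hydrolases. CTSD, an aspartic protease, had 10.18, 9.05 and 9.62 with Kbr at 48 h, against 9.73, 8.41 and 9.36 in controls. Replicate 1 was the highest and replicate 2 the lowest in all 4 groups, and the number accounted for 96.6% of the variance within groups. The change of 0.45 had an SE of 0.44 (adjusted p = 0.441), while with the block it passed (0.00548), with a higher Kbr array in 3 of 3 pairs. CTSB, another cysteine protease, and GAA, the acid glucosidase, kept the same order of replicates in all groups, as did ATG9A. ATG5, ATG12 and ATP6V1D kept other fixed orders. The trait was thus not confined to hydrolases, and the number's share was 96.9% in ATP6V0D1 and 95.6% in ATP6V1D. GAA and CTSB are named here after their values were seen. GAA had 5.23, 4.29 and 4.64 with Kbr at 48 h, against 6.30, 5.31 and 5.81 in controls, with no overlap. Its change of -1.09 had an SE of 0.41 (adjusted p = 0.0545). CTSB changed by -0.39 (adjusted p = 0.109, and 0.00162 with the block), and its other 4 probe sets changed by -0.43 to -0.67, of which those at -0.46 (adjusted p = 0.0446) and -0.64 (adjusted p = 0.00416) passed in the fit over probe sets. With the block 15 members were higher and 8 lower at 48 h, beside 57.5% of all genes, and among them were 3 hydrolases higher and 3 lower at 48 h.

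Of 6 genes of the lysosomal membrane and lipid export, the pair that moves cholesterol out of the lysosome split at 48 h. NPC1, the membrane exporter, had log2 values of 11.9972, 12.10 and 12.15 with Kbr, against 11.44, 11.37 and 11.91 in controls. It rose by 0.51 (SE 0.15, adjusted p = 0.0189), without overlap, and the call was lost without Kbr replicate 2 or control replicate 1 or 2, with an adjusted p up to 0.0717, and with only the 48 h groups fitted (adjusted p = 0.0503). In Kbr cells it also rose between the times, by 0.79 (adjusted p = 0.0119, and 0.0508 without Kbr replicate 2 of 48 h). NPC2, which hands cholesterol to NPC1, had 12.32, 12.43 and 12.50 with Kbr at 48 h, against 12.98, 12.89 and 12.81 in controls. It fell by 0.48 (SE 0.11, adjusted p = 0.00453), and that call held without any single array. LAMP1, a main glycoprotein of the lysosomal membrane, had 13.28, 13.28 and 13.16 with Kbr, against 13.29, 13.44 and 13.35 in controls. Its groups differed by -0.12, below the threshold (adjusted p = 0.251). LAPTM4A changed by -0.12 without passing. LAMP2, the other main membrane glycoprotein, changed by -0.09 by its brightest probe set, without passing. Its 3 other probe sets were lower at 48 h, by changes of -0.39, -0.45 and -0.94 that all passed in the fit over probe sets (adjusted p = 0.0275, 0.0109 and 0.000299).

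Of 7 proton pump subunits, 1 rose and 1 fell at 48 h. ATP6V1C1, the C subunit of the cytosolic sector, had 11.77, 12.14 and 12.41 with Kbr, against 11.02, 11.52 and 11.62 in controls. It rose by 0.72 (1.64-fold, SE 0.20, adjusted p = 0.0140), and the call was lost without control replicate 1 (adjusted p = 0.0558). Its 3 other probe sets changed by 0.39, 0.74 and 0.38. Only the change of 0.74 passed in the fit over probe sets (adjusted p = 0.00508, against 0.0737 and 0.336). ATP6V1A, the catalytic subunit, had 11.75, 11.85 and 11.65 with Kbr, against 12.43, 12.52 and 12.31 in controls. It fell by 0.67 (1.59-fold, SE 0.14, adjusted p = 0.00294), a second probe set fell by 0.71, and neither gene's groups overlapped. At 24 h both had the same direction and passed only with the block, ATP6V1C1 by 0.39 (adjusted p = 0.258, and 0.0290 with the block) and ATP6V1A by -0.39 (0.111, and 0.00852 with the block). The other 5 subunits changed by -0.16 to 0.20 at 48 h without passing.

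Set beside each other at 48 h, 8 of 18 genes of the autophagy machinery passed (5 higher and 3 lower, 44.4%), against 5 of 15 hydrolases and pump subunits (3 higher and 2 lower, 33.3%), beside 42.8% of all genes. With the block these were 11 of 18 (61.1%) and 8 of 15 (53.3%), beside 57.5%. The median log2 change was 0.25 in the machinery, -0.23 in the hydrolases and 0.10 in the pump. By replicate pair, the median in the machinery was 0.26, 0.32 and 0.04 and that in the hydrolases was -0.28, -0.23 and -0.0042, so replicate pair 3 showed little of the gap. With probe sets averaged per gene the medians were 0.0926 in the machinery and -0.0713 in the hydrolases, and at a floor of 6 the hydrolases were at -0.0722. Without Kbr replicate 2 of 48 h the hydrolase median was -0.0156, and without control replicate 1 of 48 h it was -0.1485. That of the pump was 0.0355 with quantile normalization repeated and 0.0408 without control replicate 1 of 48 h. At 24 h the medians were 0.03, -0.02 and -0.02. The difference between the classes was not tested. Within the machinery the median was 0.38 for the conjugation enzymes, 0.03 for initiation and -0.05 for the ATG8 family.

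**Figure D3:**
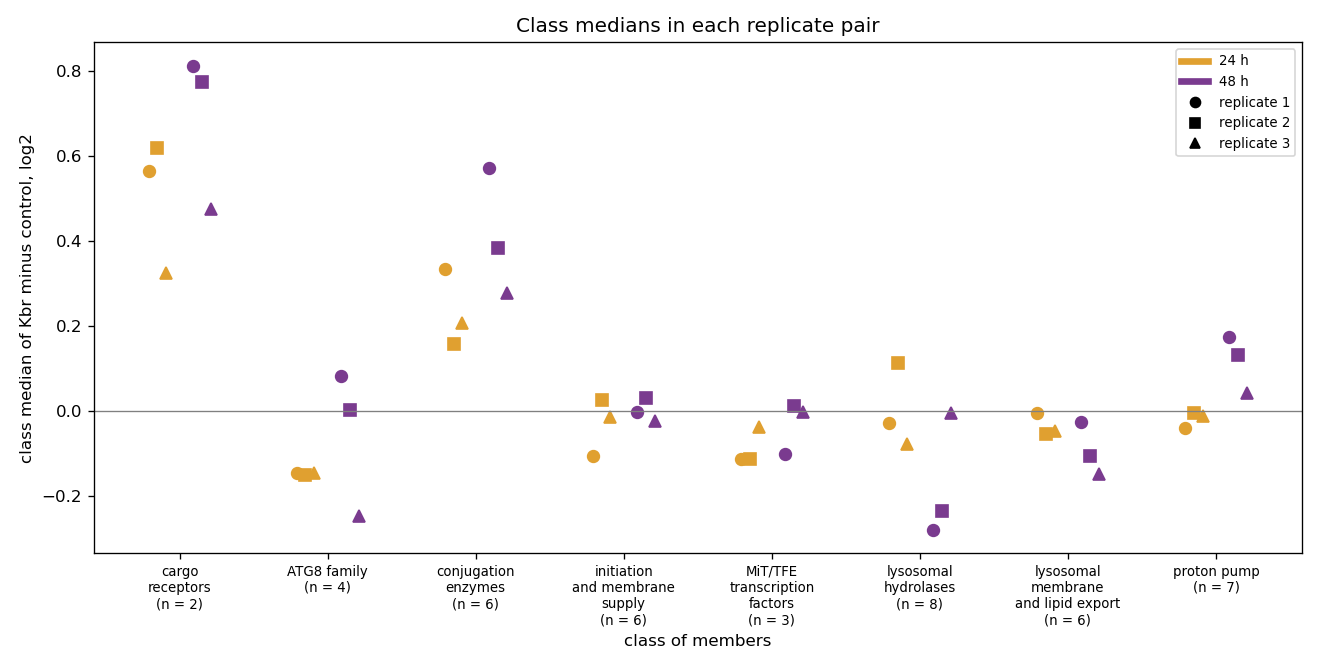
Median over the members of a class of the log2 difference, Kbr minus control (vertical axis), in each of the 3 replicate pairs at 24 h (yellow) and 48 h (purple). The conjugation enzymes lie above 0 in all 6 pairs, and the hydrolases lie below 0 in all 48 h pairs, with replicate pair 3 close to 0.

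The change between times was tested as the 48 h effect minus the 24 h effect, which share no arrays. Of the 42 members, 0 passed with limma, beside 0.141% of all genes, and 5 had an unadjusted p under 0.05. With the block 2 passed, beside 7.36% of all genes, namely GABARAP by -0.47 (adjusted p = 0.248, and 0.0327 with the block) and NPC1 by 0.63 (0.197, and 0.0372 with the block). For SQSTM1 the difference was 0.61 (adjusted p = 0.280) and for ATG16L1 it was 0.72 (adjusted p = 0.182). In control cells at 48 h against 24 h, ATP6V1A alone was higher, by 0.59 (adjusted p = 0.0449), beside 3.29% of all genes called (1.42% higher), and that call held in 2 of 12 fits with an array left out. With the block GABARAP, ATG14 and HEXA were higher as well, beside 22.5%. In Kbr cells at 48 h against 24 h, SQSTM1, GABARAPL1 and NPC1 were higher and none lower. The share of all genes higher in that comparison was 5.60%. With the block 7 members were higher and 5 lower, beside 30.7%.

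Genes of the same pathway outside the 43 were counted in 8 lists of 155 genes. Of these 129 were tested, 16 lay below the filter and 10 were not analysed here. At 48 h 21 were higher and 36 lower (44.2%, beside 42.8% of all genes), and with the block 33 were higher and 45 lower (60.5%, beside 57.5%). At 24 h 1 was higher and 1 lower, ATP6V0B and DEPTOR (1.55%, beside 5.74%), and with the block 14 were higher and 25 lower (30.2%, beside 24.4%). The list of other lysosomal hydrolases held 15 lower and 0 higher of 25 tested, where 20.8% of all genes were lower, and its median log2 change was -0.54. Between 12 and 16 of them were lower when single arrays were left out. From 24 h to 48 h the list's median change was 0.31 in control cells, where 22 of the 25 had a positive sign. In Kbr cells it was -0.08, with 9 positive and 16 negative. The 48 h gap therefore holds a rise in controls as well as the values with Kbr. CTSO, a cysteine protease, had log2 values of 4.81, 4.98 and 4.05 with Kbr, against 7.11, 7.07 and 6.93 in controls, a change of -2.42 (SE 0.23, adjusted p = 6.51e-05). CTSF, a further cysteine protease, had 7.14, 6.42 and 6.88 with Kbr, against 8.87, 8.25 and 8.33 in controls. It changed by -1.67 (adjusted p = 0.000666). SMPD1, the acid sphingomyelinase, changed by -1.57 (adjusted p = 0.0018), with Kbr values of 4.04 to 4.62 near the filter and control values of 5.66 to 6.04. With the 8 members, 33 hydrolases were tested, and 2 were higher and 16 lower. The fibroblast markers COL1A1, DCN and LUM were also lower on these arrays, and their part in this count was not tested.

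The other proton pump subunits included 5 higher and 2 lower of 10 tested at 48 h (5 and 4 with the block). These calls made 70%, beside 42.8% of all genes, and 90% with the block, beside 57.5%. ATP6V0A2, a membrane subunit, had 8.64, 8.52 and 8.38 with Kbr at 48 h, against 6.14, 6.77 and 7.13 in controls, a change of 1.83 (3.55-fold, adjusted p = 0.000371). ATP6V0E2 changed by -0.81 (adjusted p = 0.00669). The other of the 2, ATP6V1G2, passed the filter only through control arrays, so it had to differ. Its Kbr values at 48 h were 2.62 to 2.98, below the filter, and its control values 4.24 to 4.70. ATP6V0B was higher at 24 h, by 0.34 (adjusted p = 0.0384), a call lost in 8 of 12 fits with an array left out, namely those without any Kbr array or control replicate 1 or 2 of 24 h, or Kbr replicate 2 or control replicate 2 or 3 of 48 h.

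The remaining lists held calls in both directions at 48 h. From 26.3% to 50% of the genes tested in a list were called, beside 42.8% of all genes (22.0% higher and 20.8% lower). With the block these shares ran from 42.9% to 64.7%, beside 57.5%. Other cargo receptors had 1 higher and 4 lower of 10, with RETREG1, a receptor for the endoplasmic reticulum, at -0.80 (adjusted p = 0.0134), and the mitochondrial receptor BNIP3L and the ubiquitin-binding OPTN both at -0.57. Other autophagosome formation genes had 3 higher and 2 lower of 19 (8 and 3 with the block), led by ATG101 of the starting kinase complex at 1.14 (adjusted p = 0.000191), with ATG10 at -0.67 and ATG2B at -0.63. Fusion genes had 2 higher and 3 lower of 14, with the SNARE protein VAMP8 at -0.76 and PLEKHM1 at 0.56, and the higher calls fell to 0 without control replicate 1 or 2 of 48 h. The tether TECPR1 was lower (adjusted p = 0.000992), at 4.52, 3.65 and 3.13 with Kbr, which reaches below the filter, against 6.23, 5.45 and 5.56 in controls, so the size of its change is uncertain. Other genes of the lysosomal membrane and of enzyme sorting to the lysosome had 4 higher and 4 lower of 17. The membrane protein genes MFSD8 and LMBRD1 were at 0.93 and -0.72, and GNPTG, a subunit of the Golgi enzyme that tags hydrolases for the lysosome, was at -0.83.

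Among 25 nutrient-sensing genes, 4 were higher and 5 lower at 48 h (7 and 6 with the block). These calls made 36%, beside 42.8% of all genes, and 52% with the block, beside 57.5%. Without Kbr replicate 2 of 48 h, 2 were higher and 3 lower, and without control replicate 1 of 48 h 3 were lower. DEPTOR, an inhibitor of the kinase mTOR, had 10.78, 11.04 and 10.60 with Kbr at 24 h, against 11.94, 12.09 and 11.53 in controls. It was lower by a change of -1.05 (adjusted p = 0.00775) at 24 h and of -1.28 (adjusted p = 0.000212) at 48 h. SESN2 and SESN1, stress-responsive inhibitors of mTOR signalling, moved apart at 48 h, by 1.25 (adjusted p = 0.0132) and -0.88 (adjusted p = 0.00498). SESN2 had 10.22, 9.90 and 8.75 with Kbr at 48 h, against 8.98, 8.05 and 8.09 in controls, so its groups overlapped. At 24 h SESN2 was lower instead, at 7.45, 7.41 and 7.69 with Kbr against 8.37, 8.18 and 8.17 in controls, without overlap. That 24 h difference did not pass in the fit without the block. Of 9 energy and FOXO regulators, 2 were higher, PRKAB1 at 0.78 and PRKAG2 at 0.61, which are subunits of the energy sensor AMPK. With the block 3 were higher and 2 lower, and 1 was higher without replicate 2 or 3 of Kbr or replicate 1 or 2 of controls at 48 h. The activating kinase of AMPK, STK11, was lower, at -0.55 (adjusted p = 0.00161). The calls of this list made 33.3%, beside 42.8% of all genes, and 55.6% with the block, beside 57.5%. Of the genes named from these lists, 4 lost their 48 h call in some of the 12 fits with an array left out. It held in 5 for PLEKHM1 (adjusted p up to 0.156), 8 for PRKAG2 (up to 0.0958), 10 for SESN2 (up to 0.0510) and 11 for RETREG1 (up to 0.0523).

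**Figure D4:**
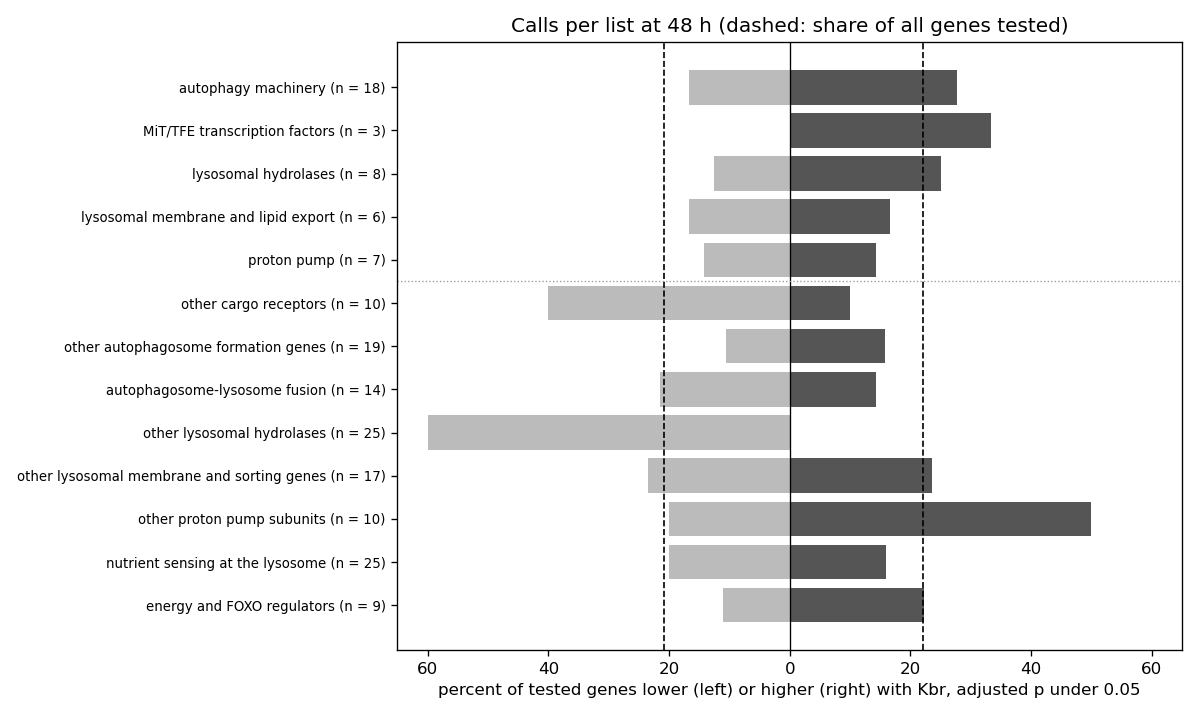
Percent of tested genes in each list that were lower (left) or higher (right) with Kbr at 48 h at an adjusted p under 0.05. Dashed lines mark the shares over all genes, 20.8% lower and 22.0% higher. Lists above the dotted line hold members and those below it other genes of the pathway, and the bar for other lysosomal hydrolases reaches 60% lower and 0 higher.

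Other probe sets of the members mostly shared the sign of the one used. Of 63 further probe sets of the tested members, which leaves out those of ULK2, 44 passed the filter, and 40 of those had the same sign at 48 h. The 4 exceptions were single probe sets of ATG5, ATG7, LAMP1 and ATP6V0E1, of which that of ATG5 passed the test.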

How the data were processed

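The deposited values are log2 expression values per probe set on 12 arrays, made by the authors with GCRMA according to the submitters' processing notes. This method models background from probe sequence and pulls weak probe sets to a floor, so changes near a log2 value of 4 depend on it. The version of GCRMA is not given in the sources used here. Of 54675 probe sets, 41091 had 1 symbol in the platform annotation, 1801 several and 11721 none, and those 2 kinds were not named. limma 3.58.1 in R 4.3.3 was run on the 12 arrays together, with 4 group means, two-sided tests and no block. On data simulated for 48 h over 10665 genes, it recovered 16% of changes of 0.5 and 72% of changes of 1. Of its calls there, 1.12% were of unchanged genes. The simulation changed 100 genes by each size and drew the noise of every array independently. In the data 42.8% of genes were called at 48 h and arrays were related by replicate number, so these rates do not give the recovery there. Deviations from group means correlated at 0.28 to 0.70 between arrays with the same replicate number and at -0.45 to -0.061 between others, so by the labels' numbers and this check the arrays are paired, and blocked values stand beside members' calls they change and beside counts. Members and lists were chosen with earlier results of these data known. Members past the test at 24 h, up to 3 risers and 3 fallers per class at 48 h with groups apart, and SQSTM1, MAP1LC3B, TFEB, LAMP1, CTSD and ATP6V1A are given per array. Up to 3 called genes per wider list are named, and ATP6V0B was added after its values were seen. Alternatives covered the block, filter, scaling, probe set choice, arrays fitted and each array left out.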

Additional observations from a re-analysis of the deposited data

Results flagged for a closer look

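In 3 members the Kbr array lay below its control in all 3 replicate pairs at 24 h and above it in all 3 pairs at 48 h. The share of all genes with this pattern is not given here, so the count is not read as a result about the members. The 48 h effect minus the 24 h effect was 0.63 for NPC1, 0.27 for the proton pump subunit ATP6V1B2 and 0.23 for the subunit ATP6V1D on the log2 scale. None of the 3 differences passed the test over all genes without the block, and that of NPC1 passed with it. ATP6V1B2 changed by -0.07 at 24 h and 0.20 at 48 h, and ATP6V1D by -0.08 and 0.15. Neither subunit passed at either time, with or without the block.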

How the results depend on the processing

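The number of arrays limits every value, and values near a log2 of 4 sit near the background floor. The count of 4 members at 24 h became 11 with the replicate block, 2 without the filter, 2 with every probe set by itself, and 1 to 4 with an array left out. The 16 at 48 h became 23 with the block, 14 with the compared groups only, where ATG3, CTSL and NPC1 were lost, and 10 to 18 with an array left out. The 0 for the difference between times became 2 with the block and 0 to 1 with an array left out. The 1 in control cells over time became 4 with the block, 2 at a floor of 6, 0 without the filter, with every probe set or with the compared groups only, and 0 to 3 with an array left out. The 3 in Kbr cells over time became 12 with the block, 1 with the mean of probe sets, 1 with the compared groups only, and 1 to 6 with an array left out. The 48 h median of the autophagy machinery moved to 0.0926 with the mean of probe sets. That of the hydrolases moved to -0.0722 at a floor of 6 and -0.0713 with the mean of probe sets, and ran from -0.3032 to -0.0156 with an array left out, and at 24 h from -0.1664 to 0.1422. At 24 h, NPC1 turned to 0.0387 with the mean of probe sets. With an array left out, the 24 h change ran from -0.1204 to 0.0509 for MAP1LC3B, from -0.1444 to 0.4997 for CTSD and from -0.1389 to 0.0241 for NPC2, and the 48 h change of TFEB from -0.2783 to 0.004. The cause was not tested. The difference between times has no value with only the compared groups.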
